A study of Mus musculus with 10 samples.

Results

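Heat shock proteins were examined in the adrenal glands of Crem knock-out and wild-type mice. The genes were 10 by name: 7 that heat or other protein-damaging stress is known to induce (Hspa1a, Hspa1b, Dnajb1, Bag3, Hsph1, Hspb1 and Hsp90aa1), 2 classed here as constitutive (Hspa8 and Hspd1) and the transcription factor Hsf1. A gene was taken as measured when a probe paired with that gene alone had values, and it was represented by the brightest such probe. By this rule 6 of the 10 genes were measured, of 19661 genes in all: the stress-inducible Hspa1a, Dnajb1, Bag3 and Hsph1, and the constitutive Hspa8 and Hspd1. Each of the 6 had a single measured probe. Hspa1b was listed only on a probe shared with Hspa1a that held no value, Hspb1 and Hsp90aa1 had 2 and 3 listed probes without values, and no probe was paired with Hsf1. Those 4 genes were not analysed here.

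RNA of the whole gland was measured on Affymetrix Mouse Gene arrays that probe the whole transcript, with 1 mouse per array, and a level is the log2 RMA value of a probe. The KO group was 5 Crem-/- mice, which lack a working gene for the cAMP responsive element modulator, and the WT group was 5 wild-type mice. Both groups had the mixed strain background 129Pas x C57Bl/J, were 8 weeks old and untreated, and were killed by cervical dislocation when the lights came on, at 0 h of circadian time. The labels placed KO 1, KO 2 and WT 1 in batch 1, KO 3 and KO 4 in batch 2, KO 5, WT 2, WT 3 and WT 4 in batch 3, and WT 5 in batch 4, so only batches 1 and 3 held both genotypes. In RNA from a whole gland, fewer cells of a type and less RNA per cell cannot be told apart.

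The array medians lay between 7.172 and 7.246, and pairs of arrays correlated at 0.908 to 0.992, and the precision is limited by how many arrays there were. The genes that define the adrenal cortex were present on every array, with a mean level of their 8 markers between 12.20 and 12.87. Some arrays stood apart. KO 1 had the lowest mean level of 7 chromaffin cell markers (8.36, against 11.34 to 12.47 on the other arrays), with the enzymes of catecholamine synthesis Dbh and Pnmt varying most, and the highest mean of 7 liver and pancreas markers (11.43, against 6.57 to 8.64). That mean rested on the 5 liver genes, of which Alb and Fgb had the widest ranges over the arrays, while the pancreas genes Cela2a (7.03) and Cpa1 (6.18) lay within the range of the other arrays on KO 1. KO 1 and KO 3 had the highest means of 7 adipocyte markers, 12.64 and 12.54 against 8.13 to 10.90, with Ucp1 and Cidea varying most. The first principal component, with 53.8% of the variance over all probes, set KO 2, KO 5 and WT 3 apart. Crem itself ranged from 6.84 to 7.97 in KO and from 7.23 to 8.14 in WT, so its probe did not separate the labels, and whether that probe lies in the disrupted part of the gene was not tested.

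Heat shock proteins are molecular chaperones, which bind unfolded proteins and help them fold, assemble or be degraded. Under protein-damaging stress the factor HSF1 forms trimers, binds heat shock elements, which are inverted repeats of the unit nGAAn, and switches on the inducible members. The HSP70 proteins work in a cycle with J-domain proteins, which bring the client and stimulate ATP hydrolysis, and with nucleotide exchange factors, which release it. In the adrenal cortex of the rat, restraint stress is known to induce HSP70 transcripts, and the glucocorticoid receptor depends on the HSP70 and HSP90 machinery to bind its hormone.

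The promoter stretches are shown because the stress-inducible genes are defined by their response to HSF1. RefSeq windows on GRCm38.p6, reaching 250 bases upstream of each start, were on hand for 7 of the 10 genes, with 10 starts in all. They were searched for a pair of inverted heat shock units, GAANNTTC or TTCNNGAA, each of which reads the same on both strands. Capitals mark the pair, and all sequences run 5′ to 3′ on the strand of the gene. The whole window of Hspa1a, which of the 6 measured genes had the largest difference between genotypes, lies at chr17:34972157-34972406 on the minus strand:
Hspa1a: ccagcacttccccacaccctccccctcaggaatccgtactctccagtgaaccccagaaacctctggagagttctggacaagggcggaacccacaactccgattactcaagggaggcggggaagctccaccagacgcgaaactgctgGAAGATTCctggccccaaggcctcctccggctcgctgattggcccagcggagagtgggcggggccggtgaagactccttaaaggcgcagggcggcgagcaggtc
Its pair began 104 bases before the start. The window of the neighbouring gene Hspa1b had 247 of 250 bases identical to it (98.8%), and the pair was the same. The remaining pairs are shown in stretches of 30 bases, for Hsph1 at chr5:149636351-149636380 (minus strand), for Hspb1 at chr5:135887791-135887820 and chr5:135887811-135887840 (plus strand), and for Hspd1 at chr1:55088053-55088082 (minus strand):
Hsph1: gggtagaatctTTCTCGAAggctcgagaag
Hspb1, distal pair: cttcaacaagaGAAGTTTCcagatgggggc
Hspb1, proximal pair: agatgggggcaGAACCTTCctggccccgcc
Hspd1: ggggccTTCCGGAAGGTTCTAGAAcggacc
The pair of Hsph1 lay 33 bases before one of its annotated starts and 54 bases before the other, those of Hspb1 117 and 97 bases before its start, and Hspd1 had 3 overlapping pairs 144, 139 and 134 bases before the second of its 2 starts. No pair was found in the windows of Dnajb1, which has 2 starts, or Bag3. A pair was thus present in 6 of the 10 windows (60.0%) and in 12.8% of 32851 windows over all genes. Of the 6, those of Hsph1 overlap, those of Hspa1a and Hspa1b are nearly identical, and the last belongs to the constitutive Hspd1. Among other heat-inducible chaperones and HSF1 targets 5 of 20 windows held a pair. The count was 2 of 3 for adrenal cortex markers and 0 of 11 for chaperones of the endoplasmic reticulum. With so few windows, the share in the 10 is not read as a trait of the stress-inducible genes as a class. The cAMP responsive element TGACGTCA, the site that CREM and CREB proteins bind, was in none of the 10 windows and in 1.55% of all windows. Its shorter form TGACG, which the full element contains, was in 3 windows, 11 bases before a start of Dnajb1, 141 before that of Hspb1 and 184 before the second start of Hspd1, and in 17.8% of all windows. A match of letters is a description and does not show binding.

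The comparison of genotypes asked how adrenals without Crem differ from wild-type ones. The limma test called 0 of 25664 probes (percent called 0, Benjamini-Hochberg adjusted over all probes, threshold 0.05), and none of the 6 genes passed. Without adjustment 878 probes (3.42%) had a p under 0.05, of which 641 (2.50%) were lower in KO. The 6 genes were chosen with results of this contrast known, so their differences are given as a description, with no test. Of the 6, 5 had a lower mean in KO, against 53.2% of all genes and 68.7% of the genes above the median level. The 4 stress-inducible genes were all lower, the constitutive Hspa8 was higher and the constitutive Hspd1 differed by less than its spread. With batch as a block only Hspa1a, Dnajb1 and Bag3 stayed lower, and 59.9% of all genes were lower.

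Hspa1a encodes the inducible cytosolic HSP70. Its level was 9.52, 8.78, 8.48, 8.69 and 8.52 on KO 1 to KO 5 and 9.68, 9.47, 10.02, 10.71 and 10.41 on WT 1 to WT 5. Every KO array but KO 1 was below every WT array, and KO 1 exceeded only WT 2. The KO mean of 8.80 ± 0.42 and the WT mean of 10.06 ± 0.51 (SD, n = 5 each) gave a difference of -1.26 with a standard error of 0.27, or a 2.39-fold higher level in WT. The difference was -0.53 within batch 1 and -1.54 within batch 3, and -1.06 with batch as a block. Because Hspa1b encodes a nearly identical protein, the signal of this probe cannot be assigned to Hspa1a alone with certainty.

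Dnajb1 encodes the J-domain protein HSP40, the partner that feeds clients to HSP70. Its level was 10.04, 8.86, 9.63, 9.67 and 9.30 on the KO arrays and 10.26, 10.14, 10.06, 10.46 and 10.21 on the WT arrays. The groups did not overlap, but the gap between KO 1 and WT 3 was only 0.019. Over all genes, 98 of 19661 (0.498%) had every KO array below every WT array. The WT mice lay close together (10.23 ± 0.15, SD, n = 5), while the KO mice spread more widely (9.50 ± 0.45, SD, n = 5). The difference was -0.72 with a standard error of 0.20, a 1.652-fold higher level in WT. Batch 1 alone gave -0.81 and batch 3 alone -0.92.

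Bag3 encodes a nucleotide exchange factor of HSP70 that directs clients to autophagy. Its level was 9.67, 9.43, 9.78, 10.04 and 9.33 in KO and 10.51, 10.30, 9.67, 10.31 and 10.33 in WT. The groups overlapped through WT 3, which was as low as KO 1, and the other WT arrays were above every KO array. The means were 9.65 ± 0.28 and 10.22 ± 0.32 (SD, n = 5 each). The difference was -0.57 with a standard error of 0.18, or 1.489-fold, and it was larger within batch 1 (-0.97) and batch 3 (-0.76) and with batch as a block (-0.86).

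Hsph1 encodes HSP110, a nucleotide exchange factor of the cytosolic HSP70 proteins. Its level was 10.86, 11.69, 10.44, 10.44 and 11.51 in KO and 10.98, 11.08, 11.84, 12.00 and 11.76 in WT. KO 2 and KO 5 were as high as the WT arrays, above WT 1 and WT 2, and the remaining KO arrays were below every WT array. The means of 10.99 ± 0.59 and 11.53 ± 0.47 (SD, n = 5 each) differed by -0.54 with a standard error of 0.30. The sign was not the same within batches: the difference was 0.29 within batch 1, -0.13 within batch 3 and 0.07 with batch as a block.

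**Figure D1:**
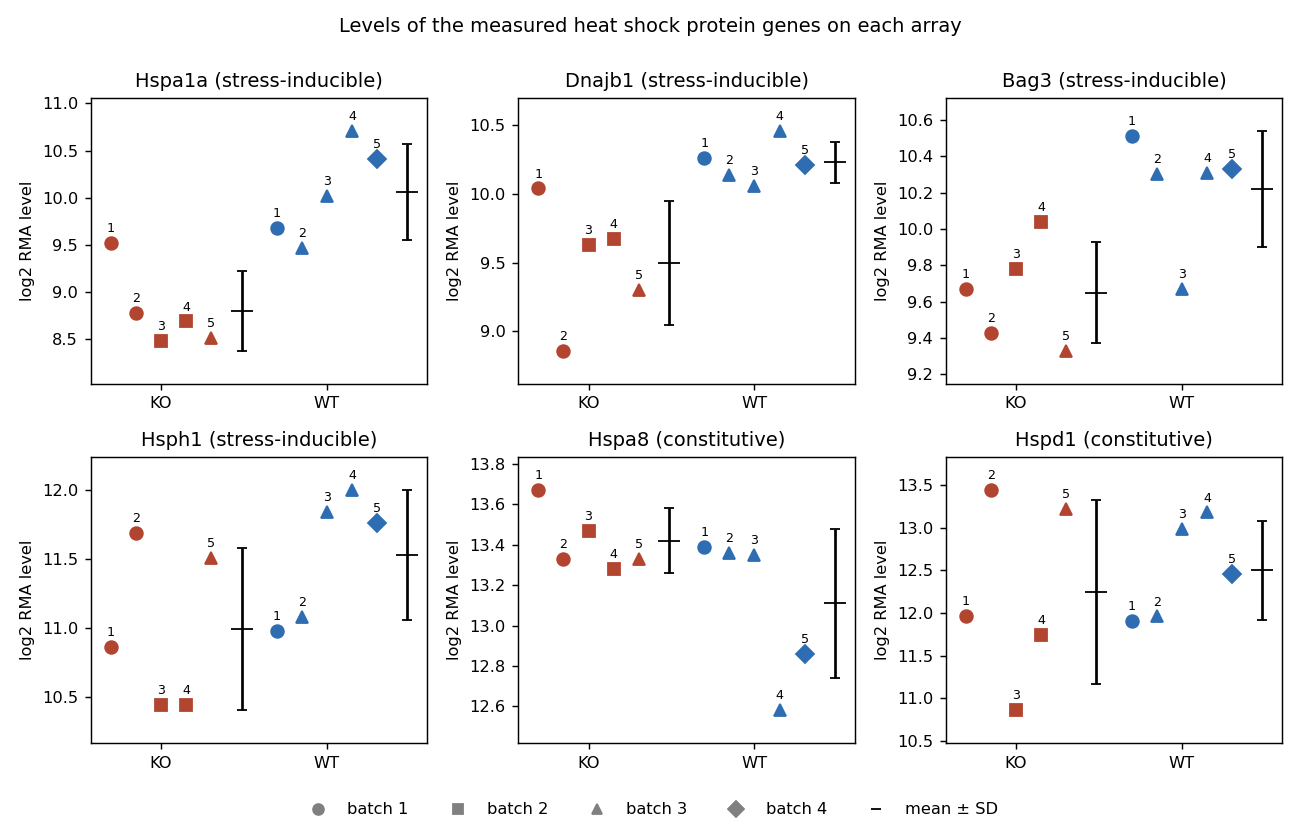
Level of each measured heat shock protein gene (y axis, log2 RMA level) on the 5 KO (red) and 5 WT (blue) arrays, numbered by mouse, with the symbol giving the batch and black bars the mean ± SD. Hspa1a, Dnajb1 and Bag3 were lower on most KO arrays, Hsph1 and Hspd1 were high on KO 2 and KO 5, and Hspa8 was lowest on WT 4 and WT 5.

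Hspa8 encodes HSC70, the constitutive cytosolic HSP70, which folds new proteins and uncoats clathrin vesicles. Its level was 13.67, 13.33, 13.47, 13.28 and 13.33 on the KO arrays and 13.39, 13.36, 13.35, 12.58 and 12.86 on the WT arrays. Most arrays lay close together, and WT 4 and WT 5 were the lowest. Those were the arrays on which Hspa1a was highest. The KO mean of 13.42 ± 0.16 and the WT mean of 13.11 ± 0.37 (SD, n = 5 each) gave a difference of 0.31 with a standard error of 0.17, or a 1.238-fold higher level in KO. It was 0.11 within batch 1, 0.23 within batch 3 and 0.17 with batch as a block, and it was 0.18 without WT 4. Of 3 probes paired with Hspa8 alone 1 held values, so a second probe could not be set beside it.

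Hspd1 encodes HSP60, the chaperonin of the mitochondrial matrix. Its level was 11.97, 13.44, 10.86, 11.74 and 13.22 in KO and 11.91, 11.96, 12.99, 13.18 and 12.46 in WT. KO mice held both the highest and the lowest values, a 5.97-fold range over the arrays. The pooled SD within groups of 0.86 was above that of 95.0% of all genes. The means of 12.25 ± 1.08 and 12.50 ± 0.58 (SD, n = 5 each) differed by -0.26 with a standard error of 0.48. The sign turned with batch as a block (0.64), within batch 1 (0.79), within batch 3 (0.51) and without KO 3 (0.09).

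**Figure D2:**
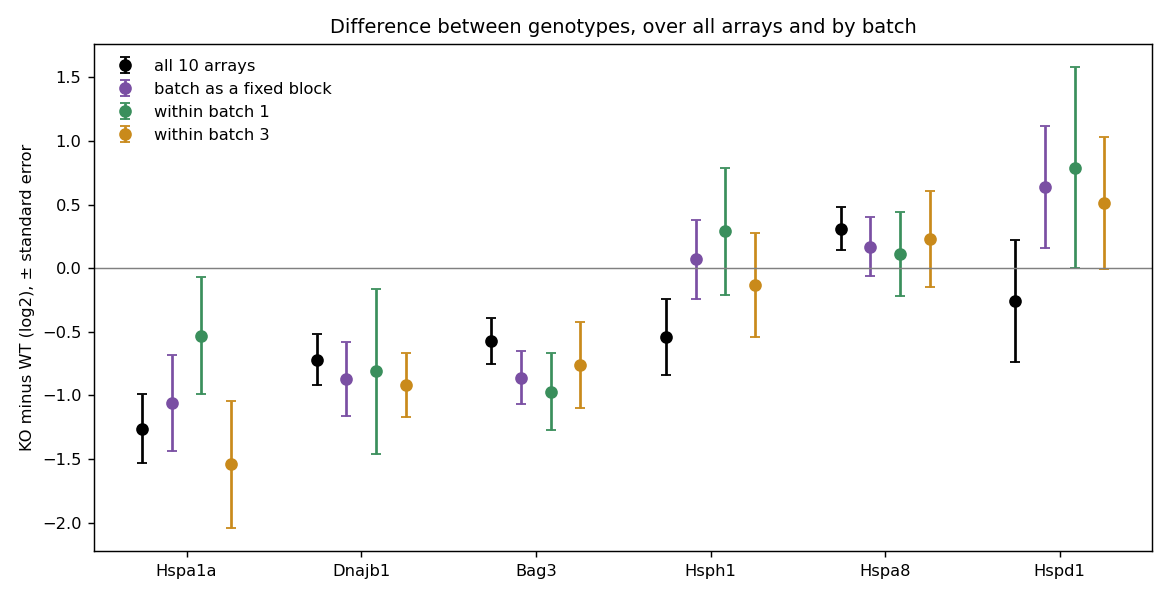
Difference in log2 level between KO and WT (y axis, ± standard error) for each measured gene over all 10 arrays, with batch as a fixed block, and within batches 1 and 3, the batches that hold both genotypes. Hspa1a, Dnajb1 and Bag3 were below 0 in each estimate and Hspa8 above 0, whereas Hsph1 and Hspd1 changed sign with batch.

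The stress-inducible and constitutive genes were then set against each other by role. Hspd1 was classed as constitutive, but a window of it held 3 overlapping heat shock pairs, so the contrast depends on that label. The median difference was -0.65 over the 4 stress-inducible genes and 0.03 over the 2 constitutive genes, beside -0.01 over all genes. With batch as a block these medians were -0.86, 0.41 and -0.06. The mean level of the 4 stress-inducible genes was 10.02, 9.69, 9.58, 9.71 and 9.66 in KO and 10.36, 10.25, 10.40, 10.87 and 10.68 in WT. These means did not overlap between genotypes (9.73 ± 0.17 against 10.51 ± 0.26, SD, n = 5 each), which describes the choice of the genes and supports nothing further. KO 1 had the highest mean among the KO mice and KO 3 the lowest of all arrays. Both had high adipocyte markers and the highest means of the liver and pancreas markers. The part of those tissues in these levels was not tested. The mean of Hspa8 and Hspd1 was 12.82, 13.39, 12.17, 12.51 and 13.27 in KO and 12.65, 12.66, 13.17, 12.88 and 12.66 in WT, and the groups overlapped throughout. With each gene centred on its mean over the arrays, the stress-inducible minus the constitutive genes were lowest on KO 2 and KO 5 (-0.91 on the latter) and came to -0.10, 0.11 and -0.10 on the remaining KO arrays in order. In WT they came to 0.40, 0.29, -0.08, 0.68 and 0.71, so that only KO 3 exceeded a WT array, WT 3.

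The immediate early genes, which are transcribed within minutes of a stimulus, are another group that responds to handling and stress. Of 10 measured, 9 had a lower mean in KO, with a median of -0.20, or -0.63 with batch as a block. Their mean level ranged from 7.92 to 8.78 in KO and from 8.51 to 8.83 in WT, and Fos and Nr4a1 varied most. KO 5 and KO 2 were lowest, and these arrays were also lowest in Bag3 and Dnajb1. The other stress-inducible genes did not share this order. Hspa1a was lowest on KO 3 (8.48), and Hsph1 was higher on KO 2 (11.69) and KO 5 (11.51) than on the remaining KO arrays. Cirbp, a cold-inducible RNA-binding protein gene that heat lowers, had a difference of -0.20, with KO 1 (9.19) and KO 2 (9.83) below the other arrays (10.15 to 10.91). Among the cell type markers, 7 of 7 chromaffin cell markers were lower in KO, with a median of -0.82, or -1.36 with batch as a block, which is further from 0 than the median of the stress-inducible genes. The liver and pancreas markers were higher in 7 of 7 (median 1.32, or 0.79 with batch as a block). Their mean was 11.43 on KO 1 and 6.57 to 8.64 on the other arrays. The sign of their median turned between batches, with 2.58 within batch 1 and -0.56 within batch 3. The adipocyte markers were higher in 7 of 7 (0.37, or 0.15), with KO 1 and KO 3 highest. None of these markers passed the limma threshold. Endothelial markers were lower in KO as well, with 6 of 6 below 0, a median of -0.35 and the widest ranges in Tek and Emcn, and so were 8 of 8 cortex markers (median -0.11). Of 5 measured blood cell markers, among which Alas2 and Ptprc varied most, 4 were higher in KO (median 0.21). The part of these groups in the difference of the heat shock genes was not tested.

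The 15 pairs of measured genes were compared over the 10 arrays with Pearson's r, Spearman's rho and two-sided permutation tests. The pooled values contain the difference between genotypes with which the genes were chosen, so they are given as a description, and the tests were made on values centred by genotype. Hspa1a and Dnajb1, the HSP70 and its J-domain partner, had a pooled r of 0.81 and rho of 0.83, and with values centred by batch r was 0.84. Centred by genotype they did not pass, with r = 0.47 (permutation p = 0.164, adjusted over 15 pairs 0.307) and rho = 0.35 (permutation p = 0.333, adjusted 0.416). Dnajb1 and Bag3 had a pooled r of 0.78 and rho of 0.84, with r = 0.80 centred by batch, and did not pass centred by genotype either, with r = 0.51 (permutation p = 0.145, adjusted 0.307) and rho = 0.56 (permutation p = 0.0951, adjusted 0.293). Hsph1 and Hspd1, a cytosolic and a mitochondrial chaperone, had the highest pooled r, 0.89, with a pooled rho of 0.77. Centred by batch, which keeps the genotype difference, r was 0.84 (permutation p = 0.00258, adjusted over 15 pairs 0.0193). The rho of 0.68 centred by batch did not pass (permutation p = 0.0352, adjusted 0.171). Of the 15 pairs this was the only one to pass centred by genotype, with r = 0.94 (permutation p = 2e-05, adjusted 0.0003) and rho = 0.94 (permutation p = 0.00026, adjusted 0.0039). The permutation p of that r is the lowest that 100000 resamples can give, so it marks the limit of the resampling. Both Hsph1 and Hspd1 varied with the first principal component of all probes. With that component as a covariate, the standard error of the genotype difference fell from 0.30 to 0.16 for Hsph1 and from 0.48 to 0.19 for Hspd1. The part of that component in their r was not tested.

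Leaving out the 2 arrays farthest from the median of the gene on the x axis gave a pooled r of 0.79 for Hspa1a and Dnajb1, 0.58 for Dnajb1 and Bag3, and 0.82 for Hsph1 and Hspd1. No batch held 6 arrays, so no r was computed inside a single batch. Hspa8 had a negative pooled r with each of the other genes, the lowest with Hspa1a (-0.65), which centred by genotype was -0.46 (permutation p = 0.193, adjusted 0.322).

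**Figure D3:**
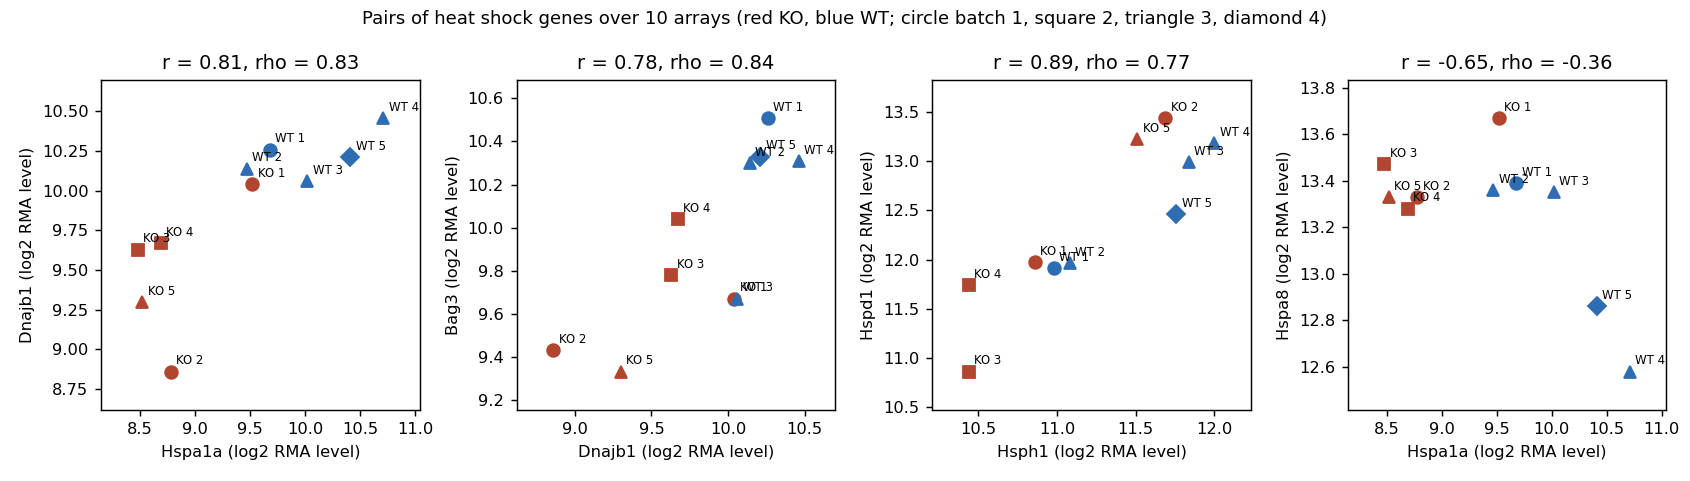
Levels (both axes, log2 RMA level) of 4 pairs of heat shock genes on the 10 arrays, with KO in red, WT in blue and the symbol giving the batch. Hspa1a and Dnajb1, and Dnajb1 and Bag3, were both higher on the WT arrays than on most KO arrays, Hsph1 and Hspd1 followed each other within both genotypes, and Hspa8 was lowest where Hspa1a was highest.

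The genes whose levels over the 10 arrays were most like that of Hspa1a were Usp17ld and Fstl1 (r = 0.88 each), Gzmb, Eloa and Kif13a (0.87 each), and Rras2, P4ha1 and Sh2d4a (0.86 each). Dnajb1 ranked 22 of 19660 genes by this measure, Hsph1 344 and Bag3 412, while Hspd1 ranked 2978 and Hspa8 19471. The genes most like Hspa8 were Prss3 (0.93), Gm14812 (0.89), Speer3 (0.87), Olfr420 (0.84), Neurl2 (0.83), Taf1d and Cyp3a44 (0.82 each) and Kcna10 (0.81), and none was a chaperone gene of the lists used here. These correlations are descriptions over 10 arrays that share batches.

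The other genes of the chaperone systems were taken from lists by compartment and role, 74 measured of 80 listed, with Cirbp counted among them. None passed the limma threshold, and 4 of 74 (5.41%) had an unadjusted p under 0.05, against 3.42% of all probes. Most were slightly lower in KO: 60 of 74 (81.1%), against 53.2% of all genes, with a median of -0.14. Bright genes leaned lower in KO: of the genes above the median level, a comparison added after the values were seen, 68.7% were lower with a median of -0.09, and so were 56 of the 64 chaperone genes among them (87.5%). With batch as a block 47 of the 74 were lower (63.5%), against 59.9% of all genes and 64.5% of the genes above the median level, so the share was near the background. None had a difference as low as that of Hspa1a, and none had groups that did not overlap.

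Of 15 measured heat-inducible genes and HSF1 targets outside the 6 genes, 13 were lower in KO, with a median of -0.18 that became 0.10 within batch 1. Hmox1, the stress-inducible heme oxygenase, had a difference of -0.50 (standard error 0.27), and Dnaja4, a cytosolic J-domain protein, of -0.27 (0.15). Among 18 cytosolic constitutive chaperones and co-chaperones, 15 were lower with a median of -0.12. The lowest p there belonged to Bag5, an exchange factor of HSC70 (-0.38, standard error 0.13), and Dnajc5, the cysteine string protein of secretory vesicles (-0.23, 0.10).

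All 8 subunits of the cytosolic chaperonin CCT, which folds actin and tubulin, were lower in KO with a median of -0.21, and the smallest p belonged to Tcp1 (-0.27, standard error 0.12) and Cct2 (-0.24, 0.13). Within batch 1 that median was 0.00 to 2 decimals. Of 11 chaperones of the endoplasmic reticulum 11 were below 0 (median -0.17), with the lectin Calr and the disulfide isomerase Pdia6 at -0.17 each, and their median within batch 1 was 0.00. Mitochondrial chaperones and proteases had 6 of 10 lower (median -0.06), with the protease Lonp1 at -0.30 and the J-domain protein Dnaja3 at -0.13. The heat shock factors and their binding proteins had a median of -0.02 over 6 genes, with Hsf3 at -0.14 and Hsf5 at 0.13. The 5 other small heat shock proteins had a median of 0.04, with Hspb3 and Hspb2, both of muscle, at 0.19.

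**Figure D4:**
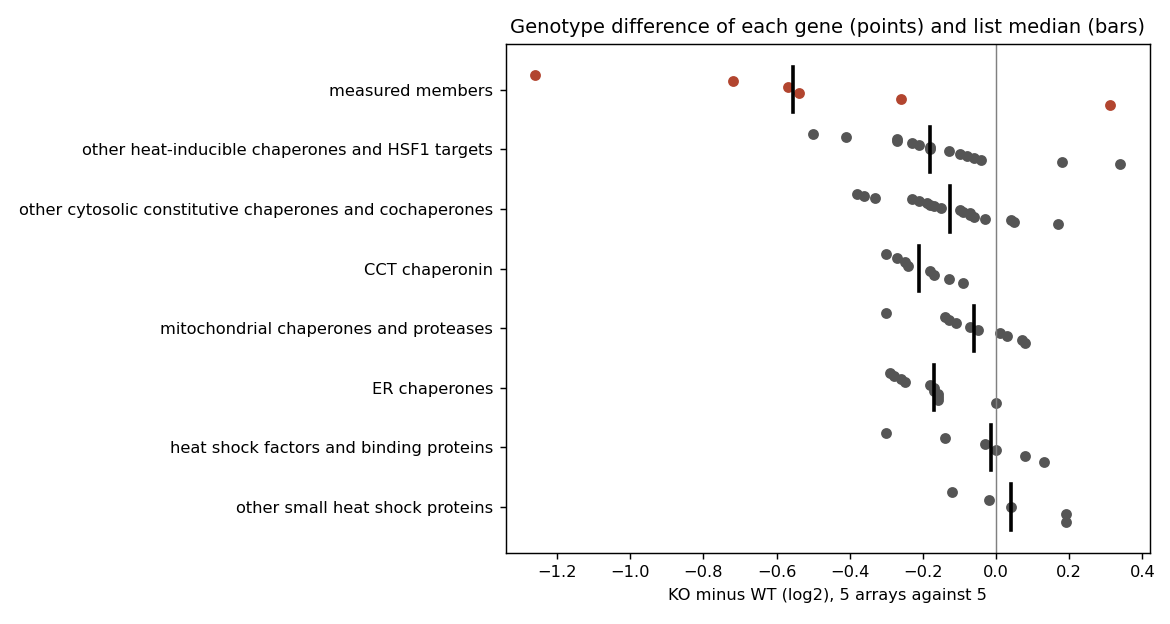
Difference in log2 level between KO and WT (x axis) for each of the 6 measured heat shock genes (red) and each gene of the other chaperone lists (grey), with a black bar at the median of each list. Hspa1a lies at -1.26, below every other gene plotted, and the other lists have medians between -0.21 and 0.04.

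A different pattern across the mice was seen in the constitutive Hspd1. It was highest on KO 2, KO 5, WT 3 and WT 4. Those arrays were also the highest on the first principal component of all probes, which held 53.8% of the variance. This pattern, noticed after the values had been seen, was shared by 20 of the 74 other chaperone genes (27.0%). Over all genes 2427 of 19661 (12.3%) shared it, and 19.5% of the genes above the median level. Of the 20, 6 came from the heat-inducible list and the others from the remaining lists. Among them were the J-domain protein Dnaja1, which ranged from 10.35 to 10.73 on these arrays and from 7.90 to 9.32 on the others, and Chordc1, a co-chaperone of HSP90, with 9.78 to 10.63 against 7.81 to 9.07. Hsp90b1, the HSP90 of the endoplasmic reticulum, had 12.68 to 13.13 against 11.25 to 12.06. On KO 2 and KO 5 these genes were high while Hspa1a, Dnajb1 and Bag3 were low, and on WT 4 they were all high. On WT 3 they were high with Hspa1a (10.02), while Bag3 (9.67) and Dnajb1 (10.06) were at their lowest among the WT arrays. Cryab and Hspb8, small heat shock proteins, ran the other way: Cryab was highest on KO 1 (11.51) and KO 3 (11.19), the arrays with the highest adipocyte markers, and lowest on KO 5 (8.81) and KO 2 (8.96).

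**Figure D5:**
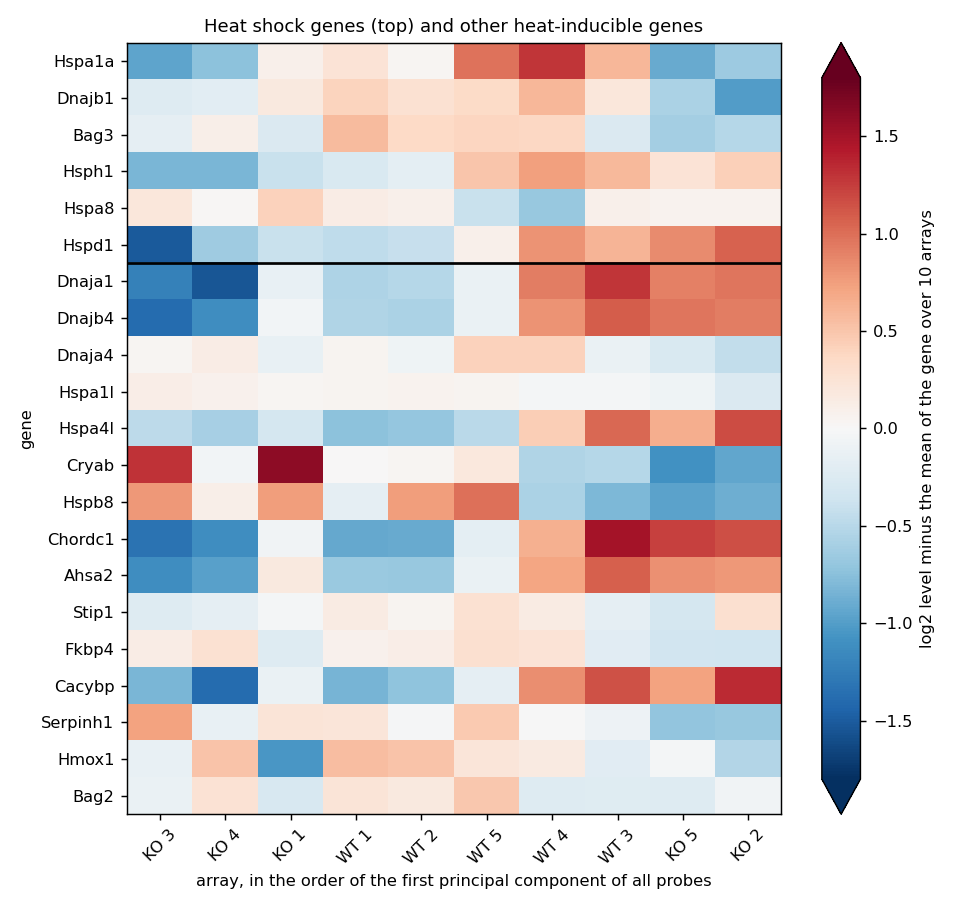
Level of each gene (rows) on each array (columns, in the order of the first principal component of all probes), as the log2 level minus the mean of that gene over the 10 arrays, with the 6 measured heat shock genes above the line and 15 other heat-inducible genes below it. Hspd1, Dnaja1, Dnajb4, Hspa4l, Chordc1, Ahsa2 and Cacybp were high on the arrays at the right, whereas Hspa1a, Dnajb1 and Bag3 were low on KO 5 and KO 2.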

How the data were processed

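Total RNA of 10 adrenal glands was labelled with biotin and hybridised to 1 array each. The deposited values are log2 levels per probe, for which the submitters' processing notes name RMA (background correction, quantile normalisation and summary of probes). The sources used here do not give its software or version. RMA gives no detection call, so no probe was classed as absent. Of 35557 rows 25689 held values, and 25 array controls were left out.

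KO and WT were compared over 25664 probes by lmFit and eBayes of limma 3.58.1 (R 4.3.3, genotype as the only term, two-sided, Benjamini-Hochberg threshold 0.05). Standard errors are moderated. The labels number the mice, so arrays were taken as separate animals. Probes were named by the platform annotation (20777 with 1 symbol, 232 with several, 4655 with none). Pairs of genes were compared with 100000 resamples (scipy 1.17.1), or all of them where fewer exist.

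The members and lists were chosen with earlier results of these data known. Named are the 10 members, the 2 genes with the smallest p of each chaperone list, the 8 genes most like Hspa1a and Hspa8, the 2 markers of widest range in each marker list, and Crem. Dnaja1, Chordc1, Hsp90b1, Cryab, Hspb8 and the other genes named beside the shared pattern were chosen after their values were seen.

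Alternatives were batch as a fixed or random block (consensus correlation 0.172), batches 1 and 3 alone, a median shift, a repeated quantile normalisation, eBayes with trend and robust, arrayWeights, 1 or 2 principal components as covariates, the brighter 12832 probes, all probes of a gene averaged, and leaving out each array. Fits without arrays that stood apart were added after the data were seen. The fit was tested on simulated data. Promoter windows came from RefSeq, and figures were drawn with matplotlib 3.10.9.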

Additional observations from a re-analysis of the deposited data

Results flagged for a closer look

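In 4 of 46 groups of 5 arrays, 1 array stood apart from the other arrays of its genotype, with a gap to the nearest array above 0.71 of the range of the group, and chance alone gives about 1 in 20. Bag3 was 9.67 on WT 3, where the nearest WT array had 10.30. The mean of the stress-inducible genes was 10.02 on KO 1, where the nearest KO array had 9.71. Dnajc5 was 9.43 on WT 1, where the nearest WT array had 9.73. Calr was 12.86 on WT 2, where the nearest WT array had 12.52.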

How the results depend on the processing

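The differences of Hspa1a, Dnajb1, Bag3 and Hspa8 kept their sign in all 23 alternatives, and lay between -1.54 and -0.53, -0.95 and -0.48, -0.97 and -0.47, and 0.11 and 0.43. The limma fit called 0 probes in every alternative except with the first component as a covariate (1 probe), with 2 components (2 probes) and without adjustment (878 probes), and no member or other chaperone was called in any of the fits with adjustment. Hsph1 changed sign with batch as a block (0.07) and within batch 1 (0.29). Hspd1 changed sign with batch as a block (0.64), within batch 1 (0.79), within batch 3 (0.51) and without KO 1 and KO 3 (0.30), and leaving out each array gave -0.55 to 0.09, with the sign turned only without KO 3. The median of the constitutive genes, 0.03 over all arrays, was 0.45 within batch 1. The cause was not tested in these cases.

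Of 15 pairs, 3 passed the threshold with pooled values over all arrays, 0 without the 2 arrays farthest from the median and 6 without KO 2, KO 5 and WT 3, and these counts contain the difference between genotypes. With values centred by genotype 1 passed. The r changed sign with values centred by genotype for Hspa1a and Bag3 (-0.02), Dnajb1 and Hsph1 (-0.51) and Dnajb1 and Hspa8 (0.03). It changed sign with values centred by batch for Hspa1a and Hspd1 (-0.20) and Dnajb1 and Hsph1 (-0.36). Without the 2 arrays it changed sign for Hspa1a and Hspd1 (-0.22), Dnajb1 and Hspd1 (0.76) and Bag3 and Hsph1 (0.12). Without KO 2, KO 5 and WT 3 it changed sign for Dnajb1 and Hspd1 (0.86), Bag3 and Hsph1 (0.57) and Bag3 and Hspd1 (0.53). The cause was not tested.

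No paired analysis was possible because the replicate numbers follow the order of the samples and pair no mice. Batches 2 and 4 each held 1 genotype, and within batches 1 and 3 a group had 1 to 3 arrays, so a lone array was assumed to vary like the others. No level of background signal was used here, which leaves the detection of dim probes open to doubt.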
